A study of Mus musculus with 2 samples.

Results

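Primary cultures of aortic vascular smooth muscle cells (VSMCs) contained a set of small barcodes with very few mitochondrially encoded transcripts. A barcode is the sequence tag of 1 droplet in the microfluidic chip, and each of its counts is 1 captured molecule, a unique molecular identifier (UMI). The members were selected by 3 measured values: at least 300 detected genes, 3000 to 8000 UMIs, and under 2.5% of UMIs from the 13 genes with an mt- symbol. By this rule, 90 barcodes of library 1 and 93 of library 2 were members. Across both libraries this was 183 of the 11690 barcodes that passed the study's limits on genes, UMIs and mitochondrial share. Within the size range, members made up 22.0% of 409 barcodes in library 1 (95% exact binomial interval 18.1 to 26.3%) and 13.1% of 712 in library 2 (10.7 to 15.8%). These intervals cover counting error only.

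The study compared smooth muscle phenotypes in culture by single-cell RNA sequencing with 3′ capture of polyadenylated RNA. Both libraries were biological replicates of 1 group: wild type mouse cells from the aorta, grown for 5 days in full medium, with no treatment and no second genotype. The cells had been released with trypsin and EDTA, filtered and loaded as live cells. Each cell preparation pooled several aortas on average, so a library is a pool of animals, and the age of the mice for these libraries was not given in the sources used here. The members were therefore set against other barcodes of the same library: the comparison barcodes had the same limits on genes and UMIs but 3 to 10% mitochondrial UMIs (209 in library 1 and 517 in library 2), and the near-empty barcodes held 1 to 100 UMIs (1246382 and 1300417).

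Mitochondrial transcripts are made and kept inside the mitochondria. Most messenger RNA is cytoplasmic, with messages for secreted and membrane proteins translated at the endoplasmic reticulum (ER), whereas long non-coding RNAs such as *Malat1* stay largely in the nucleus. The balance of these pools is commonly used to judge what a droplet held: a high mitochondrial share is a usual sign of a leaky cell, nuclear RNA marks nuclei, and droplets without a cell take up RNA that floats free in the suspension. Contractile VSMCs express actin-myosin proteins such as α-smooth muscle actin and smooth muscle myosin, and modulated VSMCs exchange these for matrix and secreted proteins.

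The 2 matrices held 127949633 and 132561822 UMIs, and the members' sums came to 411751 and 403131 UMIs once the mitochondrial genes were left out. The comparison sums were 1080693 and 2806508 UMIs, and the near-empty sums 3419544 and 3884840. The median member had 4075 UMIs and 1487 genes in library 1, and 4042 UMIs and 1564 genes in library 2. The median comparison barcode was larger, with 5389 UMIs and 1991 genes in library 1 and 5950 UMIs and 2243 genes in library 2. When every barcode was thinned to 2500 UMIs, the median gene number was 1099 and 1094 in members against 1262 and 1307 in comparison barcodes. Members under 0.5% mitochondrial UMIs had medians of 1072 and 1059. In classes between 0.5 and 2.5% the medians ran from 800 to 1307 in library 1 and from 1184 to 1304 in library 2. Members as a whole thus showed fewer different genes at equal depth too, but not in every class of mitochondrial share. No member barcode was a member in the other library, and the deepest of them there had 65 UMIs.

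The selected mitochondrial share was not spread evenly below its limit. The median was 0.292% in library 1 and 0.599% in library 2, and 55 and 42 members lay under 0.5%. The remaining 35 and 51 members lay between 0.5 and 2.5%. The division at 0.5% was chosen after the values were seen and is used for description only. Barcodes under 0.5% were mainly small: they were 44.0% and 26.9% of barcodes with 1000 to 2000 UMIs, 22.4% and 12.8% of those with 3000 to 4000 UMIs, and 7.83% and 2.05% of those with 6000 to 8000 UMIs. At 20000 UMIs or more, 1 barcode of 2872 in library 1 and 0 of 2342 in library 2 were under 0.5%. The members thus stood at the large end of a wider range of low-mitochondrial barcodes that thinned out with size.

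**Figure D1:**
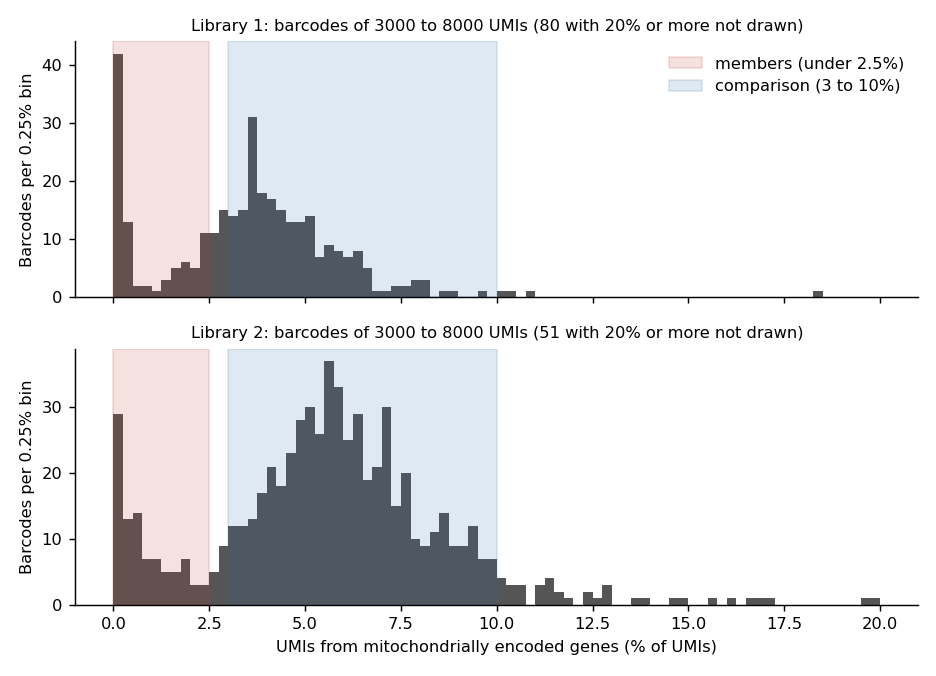
Histogram of mitochondrial UMI share (x axis, % of UMIs, bins of 0.25%) for barcodes of 3000 to 8000 UMIs and at least 300 genes, with 1 panel per library and the number of barcodes on the y axis; 80 and 51 barcodes with 20% or more are not drawn. The shaded ranges are the members (under 2.5%) and the comparison barcodes (3 to 10%). In both libraries the members under 0.5% (55 and 42 barcodes) form a peak near 0. The other members are spread between this peak and the main hump.

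At the limit itself the barcodes were mixed. The 3 members just inside had 2.44, 2.45 and 2.48% mitochondrial UMIs in library 1 and 2.25, 2.26 and 2.38% in library 2. The 3 barcodes just outside had 2.54, 2.54 and 2.57% in library 1 and 2.60, 2.62 and 2.62% in library 2. On either side of the limit in library 1 stood barcodes with few genes and a very high ribosomal protein share: 817 genes and 46.5% inside, 911 genes and 45.7% outside. The others at the limit had 889 to 2848 genes and 16.6 to 49.2% ribosomal protein RNA.

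*Hmga1*, *Akr1c18* and *AY036118*, the genes used to mark these barcodes, were present at low levels. They had been picked with earlier results of these data in view, so their levels, in CPM (counts scaled to a common total of UMIs without mitochondrial genes), are a description. *Hmga1*, an architectural chromatin protein encoded on chromosome 17 (27556497 to 27563674, plus strand, GRCm38), stood at 21.9 and 34.7 CPM in members and 10.2 and 17.1 CPM in comparison barcodes. Those member values rested on 9 and 14 UMIs, and 10.0% and 12.9% of members had an *Hmga1* UMI. *Akr1c18*, which encodes a 20α-hydroxysteroid dehydrogenase (chromosome 13, 4132615 to 4150654, minus strand), stood at 12.1 and 62.0 CPM in members and 13.0 and 19.95 CPM in comparison barcodes. It was therefore at the comparison level in library 1, with 5 UMIs, and above it only in library 2, with 25 UMIs, 10 of them in 1 barcode. *AY036118*, a non-coding transcript (chromosome 17, 39847113 to 39848035, minus strand), stood at 160.3 and 203 CPM in members, 62.0 and 126 CPM in comparison barcodes, and 309 and 447 CPM in near-empty barcodes. It lies within *Gm42418* (39846958 to 39848788, plus strand), a locus that overlaps ribosomal RNA sequence, and counts of overlapping opposite-strand genes are uncertain where the counting setting is not given. *Gm42418* itself stood at 3755 and 1922 CPM in members, 4059 and 2657 CPM in comparison barcodes, and 39293 and 31288 CPM in near-empty barcodes. *Hmga1* has a near-identical copy, *Hmga1b*, so its counts are uncertain too. The label by low mitochondrial share and small size thus describes the members, but the 3 marker genes do not mark single barcodes: a UMI was found in 9 and 12 members for *Hmga1*, in 4 and 12 for *Akr1c18* and in 34 and 47 for *AY036118*.

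Members were rich in ribosomal protein messages and poor in messages for secreted matrix in both libraries, while the summed share of nuclear-retained RNA was below that of comparison barcodes mainly in library 1. Cytosolic ribosomal protein genes, which code for the subunits of the ribosome, took 27.9% and 25.03% of the members' UMIs against 22.5% and 20.3% in comparison barcodes, a difference of 5.38 and 4.70 percentage points. Secreted matrix genes such as collagens and fibronectin took 0.783% and 0.606% against 1.95% and 1.48%. ER chaperones, which fold proteins on the secretory route, took 0.394% and 0.542% against 0.752% and 0.731%. The 12 measured nuclear-retained non-coding RNAs took 0.668% and 1.44% against 1.42% and 1.49%. For this class the libraries did not agree in size: the members' share in library 2 was within 0.0510 percentage points of the comparison value. Contractile VSMC genes took 1.44% and 1.06% against 1.27% and 0.830%, and modulated VSMC genes 0.925% and 0.999% against 1.09% and 1.22%. With 2 libraries a class, the smallest p an exact 2-sided permutation test can give is 0.333, so the shares carry no test.

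The members on either side of 0.5% differed from each other in the same classes. Under 0.5%, nuclear-retained RNA was 0.108% and 0.110%, secreted matrix 0.289% and 0.137%, ER chaperones 0.234% and 0.159%, and ribosomal protein RNA 28.5% and 28.7%. Between 0.5 and 2.5%, nuclear-retained RNA was 1.44% and 2.51%, secreted matrix 1.46% and 0.982%, ER chaperones 0.613% and 0.848%, and ribosomal protein RNA 27.1% and 22.1%. Barcodes with almost no mitochondrial RNA thus also held almost no nuclear RNA, with similar values in both libraries. Contractile messages went the other way, at 1.65% and 1.35% under 0.5% and at 1.15% and 0.825% above it. Across members, Spearman's rho between the mitochondrial share and the nuclear-retained share was 0.507 (n = 90) and 0.531 (n = 93), and with the secreted matrix share 0.510 and 0.632. In comparison barcodes the rho with the nuclear-retained share was -0.125 (n = 209) and 0.092 (n = 517). These correlations are over barcodes of 1 library each, whose shares are drawn from the same counts, and are given as a description.

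**Figure D2:**
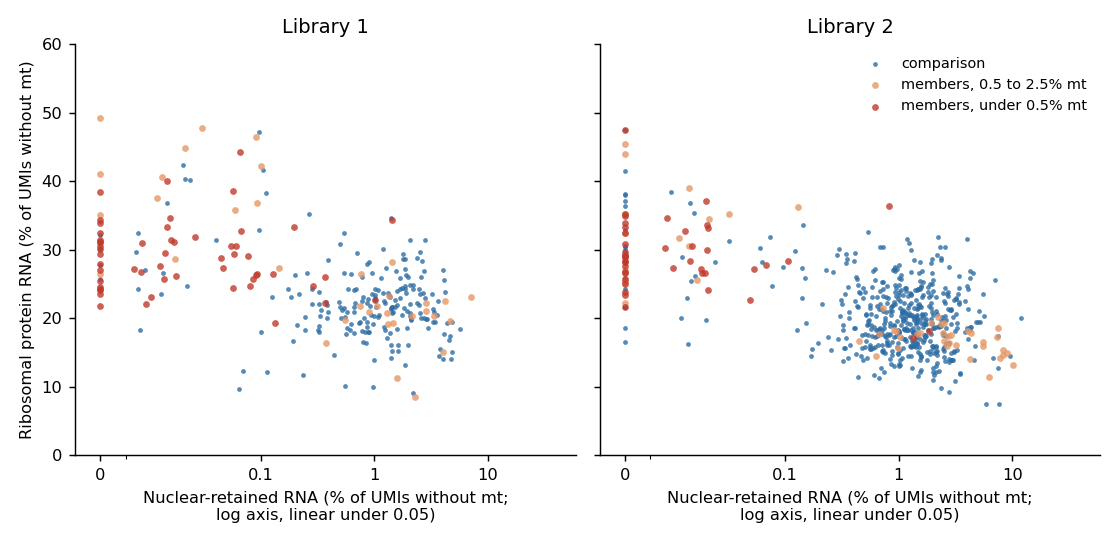
Each point is 1 barcode of 3000 to 8000 UMIs: the x axis is the nuclear-retained RNA share (% of UMIs without mitochondrial genes, log scale, linear under 0.05) and the y axis the ribosomal protein share (%), with 1 panel per library. Members under 0.5% mitochondrial UMIs gather at the left, with summed nuclear shares of 0.108% and 0.110%, while members of 0.5 to 2.5% largely overlap the comparison barcodes and include a few points of very high ribosomal share.

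*Malat1*, the most abundant nuclear RNA here (chromosome 19, 5795690 to 5802672, minus strand), showed this barcode by barcode. In library 1, 24 of 90 members had 0 *Malat1* UMIs, the median was 2 and the highest 449. In library 2, 36 of 93 had 0, the median was 1 and the highest 506. Comparison barcodes had medians of 44 and 54 UMIs, and 5 of 209 and 29 of 517 had none. The summed level was 6038 and 13946 CPM in members and 12613 and 13301 CPM in comparison barcodes, and within the members it was 1020.4 and 1037.9 CPM under 0.5% and 12921 and 24276 CPM above it. The level of 13946 CPM in library 2 was thus an average over many barcodes nearly without *Malat1* and some very rich in it.

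**Figure D3:**
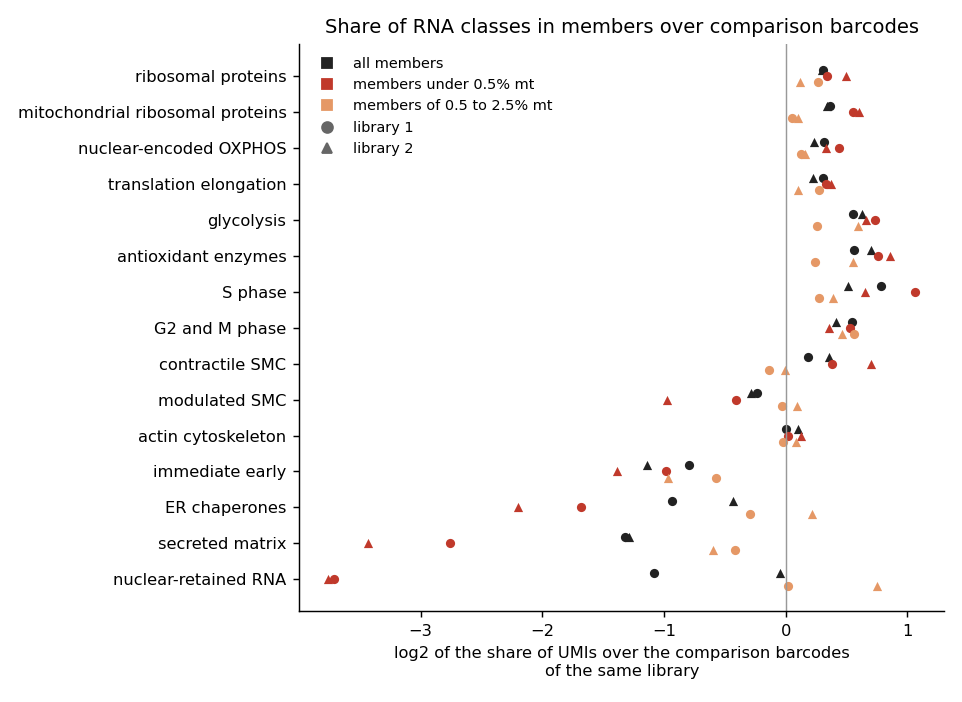
For 15 RNA classes, the x axis gives the log2 ratio of the class's share of UMIs in members to that in comparison barcodes of the same library; colours mark all members, those under 0.5% and those of 0.5 to 2.5% mitochondrial UMIs, and circles and triangles are libraries 1 and 2. Ribosomal protein RNA lies to the right of 0 for all members, secreted matrix and ER chaperones lie to the left, and members under 0.5% lie farthest left for nuclear-retained RNA.

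Graph clustering of the 183 members on their genes other than the mitochondrial ones gave 6 groups, or 4 and 8 at a lower and a higher resolution. Since the same genes formed the groups, their levels are a description. Group 1 (32 and 22 members) had median mitochondrial shares of 0.168% and 0.131%, nuclear-retained RNA of 0.0597% and 0.0145%, and ribosomal protein RNA of 30.1% and 30.4%. The 30 genes with the largest ratio over other members had only 5 to 69 UMIs each, and the clearest differences were downward, with *Neat1* at 9.15 CPM against 362 in other members, *Col1a1* at 54.9 against 595 and *Fn1* at 96.0 against 936. Group 3 (29 and 20 members) had as little mitochondrial RNA, 0.167% and 0.198%, but carried mitotic messages, and all 15 of the G2 and M phase markers were found in at least 20% of its barcodes. These markers took 0.279% and 0.416% of its UMIs, against 0.0250% and 0.0229% in group 1. Messages of dividing cells were therefore seen in barcodes with almost no mitochondrial RNA; the 2 members rich in macrophage markers described below fell in this group too. Among the genes with the largest ratio in group 2 (2 and 12 members) were *Nupr1*, a stress-induced regulator, at 1763 CPM against 199.6 in other members, *Gdf15*, a stress-induced secreted factor, at 378 against 28.0, and *Gsta4*, a glutathione transferase, at 535 against 46.6, found in 71.4%, 21.4% and 50% of its barcodes. Several others among its leading genes, such as *Lrrc14b* and *Crct1*, were found in 7.14% of its barcodes, that is in 1 of 14.

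The other groups were the members with more mitochondrial RNA, and 2 of them came from a single library. Group 4 (18 members, all of library 1) had a median of 2.21% mitochondrial UMIs, 2.34% nuclear-retained RNA and 2.33% secreted matrix RNA. Group 6 (31 members, all of library 2) had 1.10% mitochondrial UMIs, 4.08% nuclear-retained RNA and only 16.9% ribosomal protein RNA. A group from 1 library may be that library rather than a kind of barcode. Group 5 (9 and 8 members) had few genes, with medians of 1007 and 1103, much ribosomal protein RNA, at 39.8% and 37.5%, and nuclear-retained RNA of 0.0666% and 0.0328%, although its mitochondrial share of 1.95% and 1.76% was among the highest. Low nuclear RNA and low mitochondrial RNA therefore did not always come together.

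Gene by gene, members and comparison barcodes differed most clearly when each library was compared with itself. In the fit of the 4 sums without a library term (edgeR's quasi-likelihood test), 0 of 7169 genes tested passed a Benjamini-Hochberg adjusted p of 0.05, that is 0.0% called, although 1929 had an unadjusted p under 0.05. DESeq2 on the same sums called 149. With the library as a block, which is the natural pairing because both sums of a library come from 1 culture, 1985 genes passed. Of these, 1072 were higher in members (15.0% of genes tested) and 913 were lower (12.7%). Both libraries moved the same way for 1946 of the 1985, and for 5478 of all 7169 genes tested. Agreement between libraries helps a gene pass this fit, so the first of these counts adds no support. The fit has 1 residual degree of freedom among samples, and its p-values measure the spread between these sums only. Under library totals alone, with no further scaling, the same fit called 502 higher and 1794 lower, and the median of all genes lay at -0.33 on the log2 scale. Directions here are thus relative to a typical gene, and every adjusted p below is edgeR's with the block, where no gene passed without it.

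Many genes of translation and energy supply were higher in members. Of 82 tested cytosolic ribosomal protein genes, 81 were higher in members and 0 lower, with a median log2 difference of 0.56 against -0.04 over all genes tested. *Rpl12*, of the large subunit, stood at 6152 and 5884 CPM in members and 3935 and 3797 CPM in comparison barcodes (log2 difference 0.92 ± 0.07 SE, edgeR adjusted p = 1.09e-09). *Rps26*, of the small subunit, stood at 2254 and 1890.2 CPM against 1346 and 1215 CPM (0.97 ± 0.10). Both members' sums lay above both comparison sums for each gene. These genes were named for their differences, so this adds no support. Of 10 elongation factors and their partners 8 were higher, of 74 nuclear-encoded genes of oxidative phosphorylation 52, and of 76 mitochondrial ribosomal protein genes 36, with 0 lower in all 3 lists. Messages for mitochondrial proteins that are made in the cytoplasm were therefore not lower, although transcripts made within mitochondria had been selected to be few. Without scaling beyond library totals the counts of higher genes were 63 ribosomal, 7 elongation, 21 oxidative phosphorylation and 11 mitochondrial ribosomal genes, and 1 elongation gene was lower.

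Glycolytic and antioxidant genes moved in the same direction. Of 12 tested glycolytic genes 9 were higher and 0 lower, which became 7 and 1 without scaling. *Eno1*, the glycolytic enolase, stood at 469 and 479 CPM in members and 256 and 235 CPM in comparison barcodes (log2 difference 1.23 ± 0.16 SE, edgeR adjusted p = 2.73e-06). Of 12 antioxidant genes 9 were higher and 0 lower. *Txn1*, cytosolic thioredoxin, stood at 1629.6 and 1821 CPM against 938 and 953 CPM (1.14 ± 0.11). Of 10 cytosolic heat shock genes 5 were higher and 0 lower, of 8 integrated stress genes 4 higher and 1 lower, and of 9 p53 and apoptosis genes 3 higher and 0 lower. *Asns*, the asparagine synthetase that the integrated stress response induces, stood at 58.3 and 127 CPM against 33.3 and 40.6 CPM (1.61 ± 0.28).

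Secreted matrix genes were nearly all lower in members. Of 20 tested, 19 were lower in members and 0 higher, with a median log2 difference of -1.20. *Eln*, which encodes elastin, stood at 75.3 and 146 CPM in members and 567 and 766 CPM in comparison barcodes (-2.33 ± 0.19 SE, edgeR adjusted p = 1.10e-09). *Fn1*, fibronectin, stood at 765 and 655 CPM against 2260 and 1836 CPM (-1.25 ± 0.11), and *Col4a1*, a basement membrane collagen chain, at 148 and 99.2 CPM against 497 and 338 CPM (-1.48 ± 0.19). The sums of members and comparison barcodes did not overlap for any of the 3 genes, which were named for their differences, so this adds no support. Of 10 ER chaperones 4 were lower and 0 higher, among them *P4hb*, the subunit of the collagen prolyl hydroxylase, at 272 and 146 CPM against 711 and 424 CPM (-1.18 ± 0.16), and *Serpinh1*, the collagen chaperone, at 709 and 451 CPM against 1362 and 1037 CPM (-0.79 ± 0.12). Without scaling all 10 were lower.

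Of 6 tested nuclear-retained RNAs, 4 were lower in members and 0 higher. *Neat1*, the scaffold of nuclear paraspeckles, stood at 316 and 218 CPM in members and 718 and 667 CPM in comparison barcodes (-1.11 ± 0.15 SE, edgeR adjusted p = 7.01e-06). *Meg3*, an imprinted non-coding RNA, stood at 262 and 67.0 CPM against 699 and 239 CPM (-1.30 ± 0.19). The others were *Tug1* and *Xist*, the latter with 0 UMIs in members and comparison barcodes of library 1. *Malat1* did not pass (-0.22 ± 0.13, edgeR adjusted p = 0.220), and its levels differed between libraries as given above. Without scaling all 6 were lower, *Malat1* included, although in library 2 it stood at 13946 CPM in members and 13301 CPM in comparison barcodes. Its lower call thus rests on library 1. Under 0.5% mitochondrial UMIs, *Neat1* stood at 12.6 and 11.2 CPM and *Meg3* at 8.40 CPM and, in library 2, 0.

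The contractile genes split into a higher and a lower part. Of 12 tested, *Tpm2*, *Tagln*, *Acta2* and *Myl9* were higher and *Myh11*, *Smtn* and *Mylk* lower, and without scaling 3 were higher and 4 lower. *Myl9* stood at 712 and 568 CPM in members and 722 and 491 CPM in comparison barcodes, so in CPM it was higher only in library 2. *Tagln*, the actin-binding transgelin, stood at 3514 and 2701 CPM in members and 2632 and 1729 CPM in comparison barcodes (0.81 ± 0.09 SE, edgeR adjusted p = 2.52e-07). *Acta2*, α-smooth muscle actin, stood at 5741 and 4797 CPM against 5026 and 3412 CPM (0.62 ± 0.08). For both genes the members of each library lay above the comparison barcodes of that library. Across libraries the sums did not overlap for *Tagln*, but for *Acta2* the members of library 2 lay below the comparison barcodes of library 1. *Myh11*, smooth muscle myosin heavy chain and the most specific contractile marker, stood at 29.1 and 24.8 CPM against 97.2 and 94.4 CPM (-1.55 ± 0.31, edgeR adjusted p = 0.000522). The member values of *Myh11* rested on 12 and 10 UMIs, 5 of the 12 in 1 barcode. The 4 higher genes have annotated transcripts of 1128 to 2175 nucleotides and the 3 lower ones of 3386 to 7824 nucleotides.

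Modulated VSMC markers also split, with 3 of 12 higher and 8 lower. *S100a4*, a small calcium-binding protein, stood at 3560 and 5100 CPM in members and 2072 and 2520 CPM in comparison barcodes (1.18 ± 0.09 SE, edgeR adjusted p = 4.17e-10). The others that were higher were *Lgals3* and *Timp1*, a protease inhibitor, which stood at 1180.3 and 1039 CPM in members and 1183 and 643 CPM in comparison barcodes, so that its difference rests on library 2. The lower ones held the matrix and receptor genes: *Lum*, a collagen-binding proteoglycan, stood at 24.3 and 47.1 CPM against 30.5 and 183 CPM (-1.20 ± 0.32), and *Pdgfra*, a growth factor receptor, at 24.3 and 57.1 CPM against 95.3 and 92.6 CPM (-0.92 ± 0.30). For *Lum* the comparison libraries differed more from each other than the members of library 1 did from their comparison, so its difference rests mainly on library 2.

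Some cell cycle messages were higher in members, and the tested genes that passed were fewer than those that did not. Of 14 tested S phase genes 6 were higher and 0 lower, and of 15 G2 and M phase genes 6 were higher and 0 lower, or 5 and 1 without scaling. *Cdk1*, the kinase that drives mitotic entry, stood at 146 and 141 CPM in members and 24.98 and 44.2 CPM in comparison barcodes (2.29 ± 0.25 SE, edgeR adjusted p = 1.56e-07). *Ube2c*, which tags mitotic cyclins for destruction, stood at 226 and 295 CPM against 92.5 and 84.4 CPM (1.85 ± 0.20). *Gmnn*, which limits DNA replication to 1 round per cycle, stood at 72.9 and 64.5 CPM against 14.8 and 29.2 CPM (1.87 ± 0.32). With *Fbxo5*, an inhibitor of the mitotic ubiquitin ligase, and the histone gene *Hist1h2ae*, these were among the 10 genes with the largest rise. The others were *Lgals3*, *Gcat*, *Pwp1* and the intracellular protease inhibitors *Serpinb1a*, at 316 and 573 CPM against 129 and 183 CPM (1.77 ± 0.17), and *Serpinb9b*. *Mki67*, a long proliferation transcript, stood at 102 and 74.4 CPM in members against 135 and 126 CPM and did not pass (-0.30 ± 0.23, edgeR adjusted p = 0.336). It was added to the named genes after its values were seen. As a share of UMIs, S phase genes took 0.0867% and 0.0749% in members, 0.0504% and 0.0525% in comparison barcodes, 0.0803% and 0.0798% in near-empty barcodes and 0.0775% and 0.0809% in barcodes above 8000 UMIs with 3 to 10% mitochondrial UMIs. G2 and M phase genes took 0.134% and 0.129%, 0.0921% and 0.0968%, 0.140% and 0.127%, and 0.171% and 0.159% in the same order. The comparison barcodes thus had the lowest shares of these 4 classes. Against near-empty barcodes, with the block, 10 of 15 S phase and 7 of 15 G2 and M phase genes were lower in comparison barcodes and 0 higher. Over all 10665 genes tested in that fit, 843 were lower in comparison barcodes and 887 higher.

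Immediate early genes, which cells switch on within minutes of a stimulus, were lower in members for 8 of 17 and higher for 0, or lower for 14 without scaling. *Fos*, a subunit of the AP-1 transcription factor, stood at 160.3 and 107 CPM in members and 304 and 326 CPM in comparison barcodes (-0.98 ± 0.20 SE, edgeR adjusted p = 0.000722). *Zfp36*, which marks messages for decay, stood at 46.1 and 29.8 CPM against 136 and 107 CPM (-1.41 ± 0.28). Of 14 actin cytoskeleton genes 9 were higher and 2 lower, the lower ones being *Flna* and *Actn1*, which crosslink actin filaments, and without scaling 6 were higher and 3 lower.

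**Figure D4:**
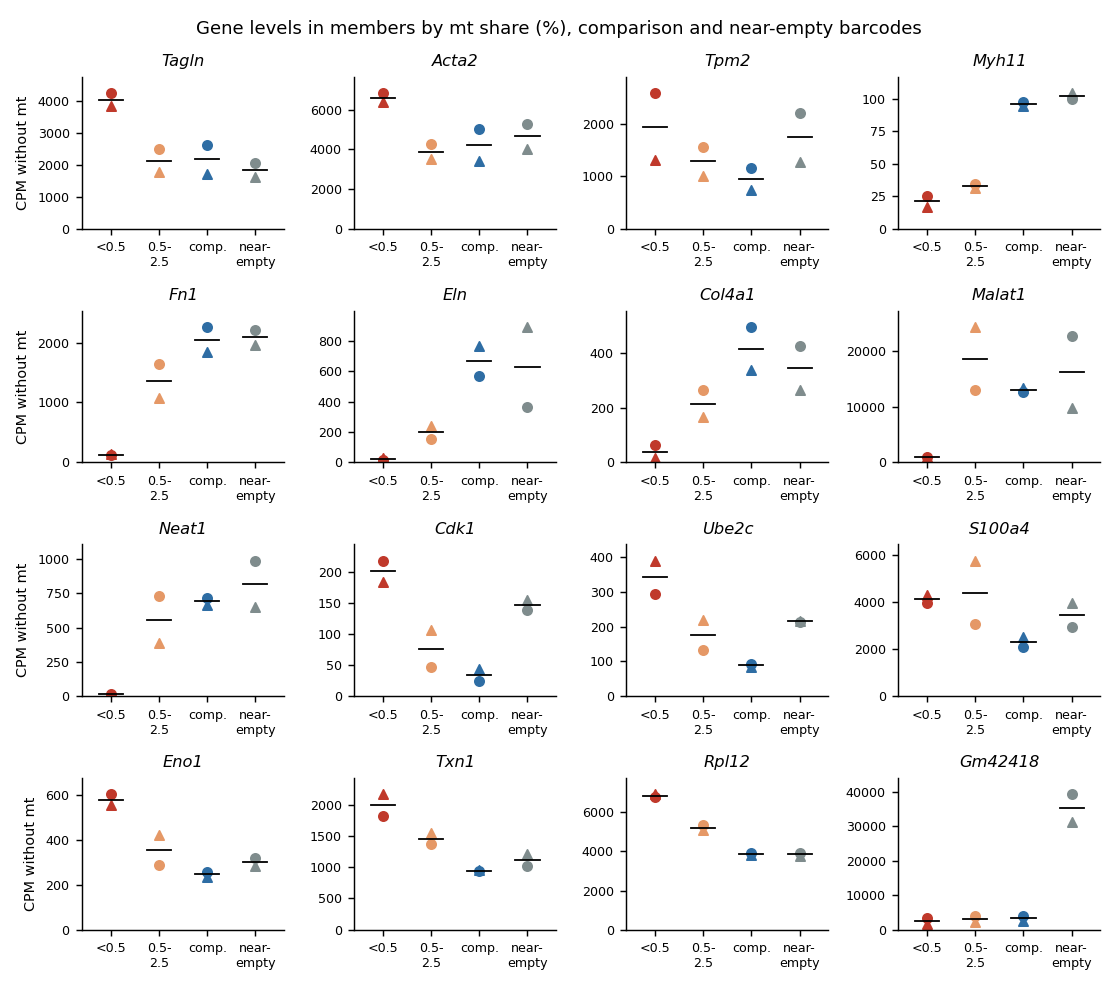
Levels of 16 genes (y axis, CPM without mitochondrial genes, from 0) in members under 0.5% and of 0.5 to 2.5% mitochondrial UMIs, comparison barcodes and near-empty barcodes; circles are library 1, triangles library 2 and bars the mean of both. *Fn1*, *Eln*, *Malat1* and *Neat1* are close to 0 in members under 0.5%, where *Tagln*, *Cdk1* and *Rpl12* have their highest levels, and *Gm42418* stands far higher in near-empty barcodes, at 39293 and 31288 CPM.

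Endothelial cells, which line the vessel and can be carried into the culture, were nearly absent from the members. The 10 endothelial markers took 0.00874% and 0.00372% of UMIs in members, 0.0581% and 0.0726% in comparison barcodes and 0.0126% and 0.0128% in near-empty barcodes. Members with at least 3 endothelial UMIs numbered 1 and 0, against 15 (7.18%) and 60 (11.6%) of the comparison barcodes. *Cldn5*, *Tie1* and *Tek* had 0 UMIs in both member sums. *Cldn5*, an endothelial tight junction protein, was at 99.0 and 88.4 CPM in comparison barcodes, so that it was at least 13.6-fold and 11.9-fold lower in members against a floor of 3 counts per library. But *Cldn5* was also low in near-empty barcodes, at 6.73 and 7.98 CPM. In barcodes above 8000 UMIs with 3 to 10% mitochondrial UMIs it stood at 7.80 and 5.76 CPM. Between members and near-empty barcodes, with the block, 0 of 7 tested endothelial markers passed in either direction. Comparison barcodes were higher than near-empty ones for 10 of 10, so a low endothelial level was not particular to members. All 8 tested endothelial markers were lower, and the 10 genes with the largest fall were *Cldn5*, *Car8*, *Icam2*, *Cdh5*, *Cdh13*, *Lmo2*, *Clec14a*, *Ctla2a*, *Pecam1* and *S1pr1*, most of them known from endothelium. Without the barcodes of 3 or more endothelial UMIs, the block fit called 2095 genes, 1815 of them shared with the full fit, and 20 of 20 secreted matrix genes were lower, 80 of 82 ribosomal protein genes higher, and 3 of 12 contractile genes higher and 3 lower.

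Macrophage markers moved in library 1. The 10 markers took 0.0410% of the members' UMIs there and 0.000992% in library 2, against 0.00148% and 0.00118% in comparison barcodes. Of the 169 macrophage UMIs in library 1, 2 members held 101 and 57, with 75 and 29 UMIs of *Lyz2*, the lysozyme of macrophages. These members had 1.605% and 0.160% mitochondrial UMIs. The first of them also held 228 of the 300 *Lgals3* UMIs of library 1, and the log2 difference of *Lgals3*, a galectin abundant in macrophages, was 2.30 with both barcodes and 0.82 without them (edgeR adjusted p = 0.00392). The whole fit without them called 2097 genes, 1971 of them shared. Lymphocyte and erythrocyte markers had 0 UMIs in members, platelet markers 9 and 0, and Schwann cell markers 10 and 13. Adventitial fibroblast markers took 0.0367% and 0.0347% of UMIs against 0.0373% and 0.0589%, and of 5 tested only *Cd34* was lower, which is also an endothelial gene and stood at a log2 difference of 0.92 (edgeR adjusted p = 0.125) without the endothelial barcodes.

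Genes higher and lower in members differed in transcript length. The longest annotated transcript had a median of 3390 nucleotides over all genes tested, 1904 over the genes higher in members and 5044 over those lower. Leaving out ribosomal protein genes, the medians were 3422, 1955 and 5044 nucleotides. Of 363 genes under 1000 nucleotides, 50.1% were higher and 1.10% lower. Of 1178 genes of 6000 nucleotides or more, 1.87% were higher and 28.1% lower. The median log2 ratio went from 0.30 and 0.27 in the shortest class to -0.83 and -0.88 in the longest. Members thus held relatively more short and fewer long messages, and several lists above are made of short genes (ribosomal proteins) or long ones (matrix). The part of length in the list results was not tested.

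**Figure D5:**
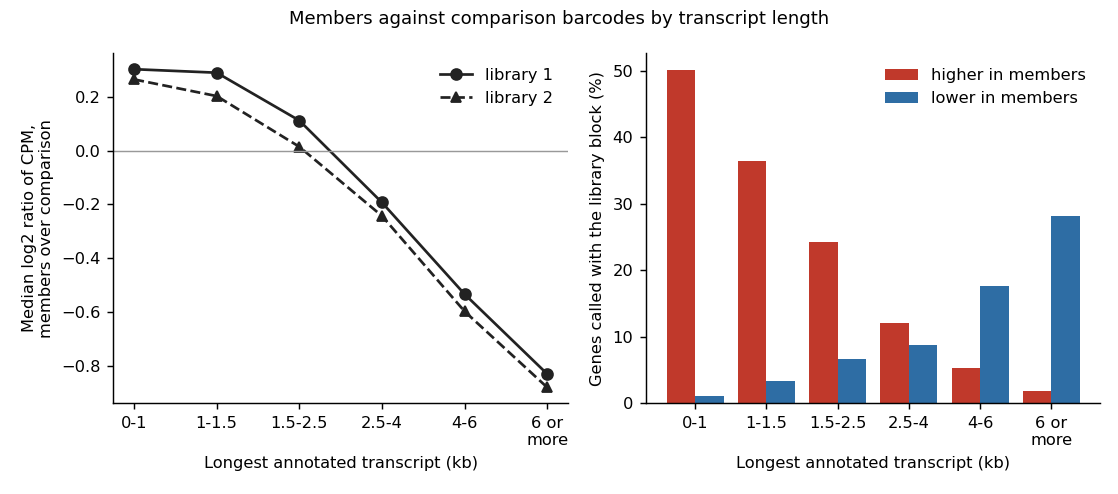
Genes tested between members and comparison barcodes, in 6 classes of longest annotated transcript (x axis, kb). The left panel gives the median log2 ratio of CPM in each library, falling from 0.30 and 0.27 to -0.83 and -0.88, and the right panel the percentage of genes called higher or lower with the library block, from 50.1% higher and 1.10% lower to 1.87% higher and 28.1% lower.

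The near-empty barcodes were taken to stand for the RNA that any droplet could take up, and the members were compared with them on the other genes. Whether they hold only such RNA was not tested, and their median was 1 UMI in each library. Near-empty sums had 11.2% and 11.4% mitochondrial UMIs, a share that members could not have by the rule that selected them. Near-empty sums held 19.4% and 19.5% ribosomal protein RNA, 2.44% and 1.11% nuclear-retained RNA and 1.75% and 1.35% secreted matrix RNA. Without a block edgeR called 0 of 9406 genes between members and near-empty barcodes (0.0%), with 1253 at an unadjusted p under 0.05, and DESeq2 called 113. With the block 491 genes were higher in members (5.22%) and 376 lower (4.0%). Of 82 ribosomal protein genes 80 were higher and 0 lower, and of 20 secreted matrix genes 18 were lower and 0 higher. Nuclear-retained RNAs were lower for 4 of 8 and higher for 0. *Gm42418* was lower by 3.47 ± 0.16 SE on the log2 scale (edgeR adjusted p = 8.87e-30), and all 3 genes overlapping ribosomal RNA sequence were lower. S phase genes were higher for 1 of 14 and G2 and M phase genes changed for 0 of 15 with the block, *Cdk1* standing at 139 and 154 CPM in near-empty barcodes. The comparison barcodes, which share these near-empty sums, differed from them at 36 of 10665 genes without a block (0.338%) and at 1730 with it (16.2%).

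Single barcodes were also placed between both profiles, by asking whether their counts were more likely under the near-empty or under the comparison profile of their library. Of the members, 34.4% in library 1 (exact interval 24.7 to 45.2%) and 64.5% in library 2 (53.9 to 74.2%) were nearer to the near-empty profile. These intervals cover counting error only, and those of the 2 libraries did not overlap. The comparison barcodes gave 4.31% and 12.6%. They helped to form the comparison profile, whereas members formed neither profile, so these shares and those of the members are not on equal terms. Under 0.5% mitochondrial UMIs the shares were 47.3% and 95.2%. This likeness depended on which small barcodes stood for the background: with barcodes of 10 to 100 UMIs, 2.22% of members in library 1 and 58.1% in library 2 were nearer to it. As whole sums, members were farther from near-empty barcodes than comparison barcodes were by divergence in both libraries, and by correlation in library 1 only. The Jensen-Shannon divergence, which is 0 for equal profiles, was 0.0678 and 0.0553 bits between members and near-empty barcodes, 0.0523 and 0.0482 between comparison and near-empty barcodes, and 0.0969 and 0.0920 between members under 0.5% and near-empty barcodes. Members and comparison barcodes lay 0.0556 and 0.0587 bits apart. Members under 0.5% lay 0.0904 and 0.106 bits from comparison barcodes. Pearson's r of log2 levels across genes, which are not independent replicates, was 0.784 and 0.799 between members under 0.5% and near-empty barcodes, and 0.728 and 0.712 between them and comparison barcodes. For all members r was 0.879 and 0.904 with near-empty and 0.853 and 0.853 with comparison barcodes, and between comparison and near-empty barcodes it was 0.905 and 0.903.

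Barcodes of the same size at the other end of the mitochondrial scale looked opposite in nuclear and ribosomal RNA. The 80 and 51 barcodes with 20% or more mitochondrial UMIs held 17.6% and 18.6% nuclear-retained RNA and 8.36% and 9.37% ribosomal protein RNA, against 0.668% and 1.44%, and 27.9% and 25.03%, in members. Low-mitochondrial barcodes above 8000 UMIs, of which there were 85 and 17, held 1.56% and 1.60% nuclear-retained RNA and 23.1% and 22.1% ribosomal protein RNA, values near those of the comparison barcodes. The median mitochondrial share of these large barcodes was 2.26% and 1.66%, nearer to that of the members above 0.5% than to that of the members under it. Barcodes of 500 to under 3000 UMIs and under 0.5% mitochondrial UMIs held 0.141% and 0.0589% nuclear-retained RNA, against 0.108% and 0.110% in members under that share.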

How the data were processed

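The authors aligned the reads with Cell Ranger to mm10 (version 3.0.2 in the submitters' processing notes; the matrix headers give 3.0.2 and 3.1.0) and deposited raw UMI counts for 31053 genes and all barcodes of both libraries, unfiltered. The alignment settings and strand handling are not given in the sources used here. Classes of barcodes were cut by genes, UMIs and mitochondrial share; no doublets were called, since the members are small. Counts without the 13 mitochondrial genes were summed per library and class, because barcodes are not replicates. Sums were tested with edgeR 4.0.16 in R 4.3.3 (quasi-likelihood test, TMM scaling, filterByExpr, Benjamini-Hochberg adjustment over all genes tested, threshold 0.05). Fits were made without a block, as written in the design, and with the library as a block. They were also run on counts simulated from edgeR's own dispersion estimates. Such counts cannot show whether p-values with 1 residual degree of freedom hold in the real data. The library number pairs the sums, which come from 1 culture: deviations of same-library sums correlated at 0.507, 0.554 and 0.685. Alternatives were DESeq2 1.42.0, other scaling, filters and class limits; those that combine the block with a second change were added after the data were seen. Barcode likeness was a multinomial log-likelihood ratio. Members were clustered with scanpy 1.11.5 (Leiden, resolution 0.5, 1000 variable genes, 10 components). Coordinates and transcript lengths are from the GENCODE annotation of GRCm38. The members, lists and marker genes were chosen with earlier results of these data known. Genes were named by role in the lists, by the 10 largest differences each way at 20 CPM or more and equal direction in both libraries, and by up to 3 smallest p per list; other genes completing a count of 5 or fewer were chosen after their values were seen.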

Additional observations from a re-analysis of the deposited data

Results flagged for a closer look

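Below the size range of the members, in barcodes that entered no test, many more barcodes had almost no mitochondrial RNA. Library 1 held 713 and library 2 held 423 barcodes of 500 to under 3000 UMIs with at least 300 genes and under 0.5% mitochondrial UMIs, against 55 and 42 members under that share. They were picked out because they are a signal in data that the tests do not use, in libraries with no control sample. Their median size was 960.0 and 987 UMIs, and 1 barcode in each library had 3 or more endothelial UMIs.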

How the results depend on the processing

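Between members and comparison barcodes, the count of genes called, 0 without a block, became 1985 with the library as a replicate block, 149 with DESeq2, 803 without a filter on low counts, 685 with members under 1.5%, 448 at 3000 to 5000 UMIs and 4 with 6 sums in 1 fit. The block combined with a second change gave 2095 genes without endothelial barcodes, 2097 without macrophage barcodes, 1627 with comparison barcodes drawn to the members' UMI counts, 1152 at 3000 to 5000 UMIs, 1302 with members under 1.5%, 2149 with DESeq2 size factors and 2296 without scaling, where 21.9% of calls were higher against 54.0% with TMM. No gene called by both the block fit and one of these had the opposite sign. Against near-empty barcodes, members gave 867 genes with the block, 113 with DESeq2, 299 without a filter and 2 with barcodes of 10 to 100 UMIs; comparison barcodes gave 1730 with the block, 54 with DESeq2 and 376 without a filter, against 36. The ribosomal difference was 5.73 percentage points with members under 1.5%. The contractile difference was 0.339 points under 1.5%, 0.136 with drawn comparison barcodes and 0.123 without endothelial barcodes. The cause was not tested. By library, differences ran from 4.70 to 5.38 points (ribosomal), -0.749 to -0.0510 (nuclear-retained) and 0.171 to 0.230 (contractile), and the share of members nearer to the near-empty profile from 34.4 to 64.5%.

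*Gm42418* and *Cd34* changed sign, neither past the threshold without a block. *Gm42418* stood at -0.0106 with drawn comparison barcodes, at -0.0131 without a filter, at -0.257 without scaling and, with the block, at -0.0112 alone, -0.0041 at 3000 to 5000 UMIs, -0.0452 with drawn barcodes, -0.0505 without macrophage barcodes and -0.303 without scaling. *Cd34* stood at 0.77 without endothelial barcodes and at 0.92 with the block too. Depth limits genes such as *Hmga1* and *Myh11*, with 9 to 14 UMIs per member sum.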
